A study of Canis lupus familiaris with 6 samples.

Results

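The 3 arrays described here follow MDCK-II cells kept with tetracycline for 30, 45 and 60 h, out of the 6 arrays of the series. They were chosen by their labels alone, as the arrays labelled scribKD with Tet. MDCK is an established epithelial line from dog kidney tubule, and scribKD cells carry a tetracycline-controlled hairpin against scribble. For each array 154000 cells per well were plated, tetracycline was added to 5 µg/ml 6 h later, and the RNA of 3 wells was mixed before labelling with Cy3. The 3 other arrays are the same line at the same times at 0 µg/ml, so both arms carry the hairpin construct and differ in the drug. There was 1 array per time, and the 45 and 60 h arrays with tetracycline shared a slide while the 30 h array lay on another. A difference between 30 and 45 h therefore cannot be told apart from a difference between slides in this arm alone. Time since induction, time in culture and any action of tetracycline other than on the hairpin cannot be told apart within this arm either. The labels do not say whether scribKD is 1 clone.

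Scribble is a scaffold protein of the basolateral membrane that works with Dlg and Lgl in setting apical-basal polarity and in shaping cell-cell junctions. MDCK cells are a standard model of this, since they form a polarized sheet with tight junctions once they are confluent. Plated cells also slow their division as the sheet fills, and their medium becomes poorer in nutrients, so a culture's transcripts change with age without any induction. SCRIB itself was not analysed here, because 0 probes matched it by name, and the extent of knockdown at each time is not known from these values.

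On the 3 arrays between 65.8% and 67.4% of spots lay well above background, and 0 spots were saturated. Levels are given as relative log2 signal, which is the log2 spot signal minus the array's 75th percentile, so that 0 lies at that percentile and a step of 1 is 2-fold. A step is the later level minus the earlier one. Counts below are of features, that is the brightest probe of each named gene and every unnamed probe, if well above background on all 3 arrays. There were 27234 features, of which 987 (3.62%) had a gene name. The signal error reported by the scanner program gave a step an error of 0.20 for bright probes and more for dim ones. Spots printed 5 times on an array varied with a median SD of 0.068 to 0.073 over 25 probes. Neither measure holds the spread between cultures, which no array of this series repeats, so the steps carry no p-value, and "rose" and "fell" are used only for steps past 2-fold.

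Markers of kidney epithelium were present throughout. All 9 marker genes with a probe, among them the adhesion molecule CDH1, the keratin KRT19 and the tight junction proteins CLDN2, CLDN3, OCLN, TJP1 and CGN, were well above background at each time. Their summed signal was 86300, 80400 and 82100 at 30, 45 and 60 h. Signals not given as log2, here and below, are spot signals before they were set to the 75th percentile. That percentile lay at 9.31, 9.273 and 9.183 on the log2 scale at 30, 45 and 60 h, so small differences between the sums do not order the times. Leukocyte markers summed to between 131 and 138, with 3 of 4 genes above background and MS4A1 not well above background on any of the 3 arrays. Of 5 fibroblast and mesenchymal markers 4 were above background on 1 or more probes, and DCN was not. The summed signal of fibroblast markers was 2280, 2320 and 2120, that of endothelial markers 14000, 15200 and 13200, and that of muscle markers 364, 419 and 523. Nearly all of the endothelial sum was 1 VWF probe (13900, 15100 and 13100), with KDR at 96.8, 123 and 124. The largest part of the fibroblast sum was 1 COL1A2 probe (1460, 1390 and 1250), and the other COL1A2 probes were at 127 or less. Of 3 erythroid markers 1, EPOR, was above background.

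Few features changed by 2-fold between neighbouring times. From 30 to 45 h 122 features (0.448%) were higher and 107 (0.393%) lower, and from 45 to 60 h 181 (0.665%) were higher and 81 (0.297%) lower. The median step of all features was 0.004 and then -0.012 (-0.046 and -0.007 under median scaling), a value that the scaling of each array itself holds near 0. Among the 987 named features 6 rose and 9 fell in the earlier interval, and 15 rose and 2 fell in the later one. Most 2-fold steps came from dim probes. When features were divided by mean signal into 4 classes of equal number, the dimmest class held 86 of the 122 rises and 93 of the 107 falls up to 45 h, and 115 of the 181 rises and 61 of the 81 falls after it. The brightest class held 6 and 2, and then 10 and 6. Without the dimmest class 36 features rose and 14 fell up to 45 h, and 66 rose and 20 fell up to 60 h. The share of rises among the earlier 2-fold steps was 53.3%. It was 45.4% with median scaling, 64% with normexp background correction, 65.3% with a slide effect taken out and 72.0% without the dimmest class.

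**Figure D1:**
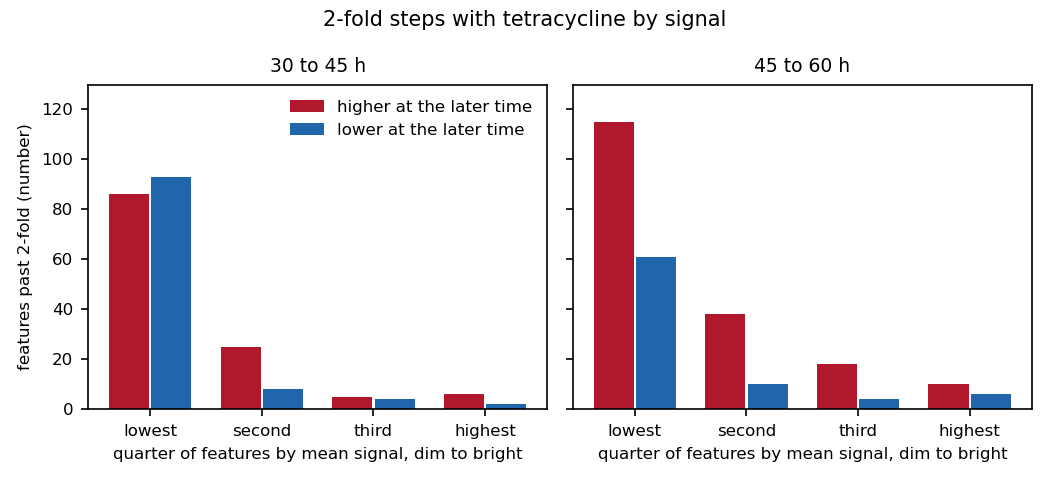
Number of features past 2-fold between neighbouring times with tetracycline, on the vertical axis, by class of mean signal (4 classes of equal number), with red bars for higher and blue bars for lower at the later time. The dimmest class holds 86 and 93 of the earlier steps and 115 and 61 of the later ones, against 6 and 2 and then 10 and 6 in the brightest class.

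A slide effect could be estimated from all 6 arrays, if the arms are taken to diverge evenly with time. That fit leaves no residual, so a slide effect and an uneven divergence of the arms cannot be told apart. A step from 30 to 45 h with the slide effect taken out is the step without tetracycline plus the even divergence per 15 h. It does not use the 45 h array with tetracycline, so it cannot tell how much of a measured step came from the slide. With the slide effect taken out of the interval from 30 to 45 h, 50 of the 229 features past 2-fold (0.841%) had a 2-fold step in the same direction. Of the 15 named ones 3 did, namely MMP9, PDE1A and SLC7A11. Values with the slide effect taken out are therefore given below for genes with an earlier step over 0.4 in size that it moved by over 1.5 times. They are also given for some genes with smaller steps, and for lists whose earlier median it moved as far.

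Among NRF2 targets and antioxidant enzymes, the cystine transporter SLC7A11 moved most. SLC7A11, the cystine-glutamate exchanger that supplies cysteine for glutathione, had relative log2 signals of -3.47, -2.28 and -1.26 at 30, 45 and 60 h. It rose 2.28-fold and then 2.02-fold, with steps of 1.19 ± 0.21 and 1.02 ± 0.21 (program error), and the 3 levels did not overlap within that error. HMOX1, which breaks down haem, was at -2.79, -2.2 and -1.77, steps of 0.59 and 0.43 that are below 2-fold. TXNRD1, the thioredoxin reductase, took steps of -0.11 (0.34 with the slide effect taken out) and 0.60, and was highest at 60 h. Over all features 50.8% were higher at 45 than at 30 h and 47.7% higher at 60 than at 45 h. Of the 13 measured NRF2 targets and antioxidant enzymes 7 were higher and 6 lower at 45 h, and 10 were higher and 3 lower at 60 h. The medians were 0.05, which turns to as low as -0.06 under median scaling or with the mean of a gene's probes, and 0.15. Only SLC7A11 of these passed 2-fold, in both intervals.

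PLAU, the secreted protease urokinase, which activates plasminogen, was at -2.0, -1.53 and -0.16. It took a step of 0.47 up to 45 h (1.03 with the slide effect taken out) and rose 2.60-fold from 45 to 60 h (1.38 ± 0.20). Both of its probes moved the same way, and its 60 h array was the one apart.

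Of the 17 measured genes for extracellular matrix, proteases and inhibitors, a list that holds PLAU, 12 were higher and 5 lower at 45 h, and 11 were higher and 6 lower at 60 h. The list's medians were 0.19, or 0.08 with the slide effect taken out, and 0.18. TNC, a matrix glycoprotein, took steps of 0.22 and then -0.49, and TIMP2, a metalloproteinase inhibitor, steps of -0.15 and then 0.43. COL9A2, a collagen chain, took a step of 0.84 in the later interval. MMP9, a secreted gelatinase, was at -2.68, -5.40 and -3.49. It fell 6.62-fold and then rose 3.76-fold, so its 45 h array was the lowest. Its signal at 45 h was 14.6 against 99.2 at 30 h, close to background, and the earlier step was -1.34 with the slide effect taken out. Its 2 probes above background both fell and then rose, and its 2 others were not well above background on all 3 arrays.

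Genes of the mesenchymal transition list did not move together. SNAI2, a repressor of epithelial genes also known as Slug, had levels of -2.59, -2.02 and -0.96, with a step of 0.56 and then a rise of 2.09-fold (1.06 ± 0.21). VIM, the intermediate filament vimentin, was at 8.22, 7.47 and 7.30, steps of -0.74 (-0.40 with the slide effect taken out) and -0.17, so it was highest at 30 h on both probes. S100A4, a calcium-binding protein of motile cells, was at 4.44, 3.83 and 3.62, steps of -0.60 and -0.21, likewise highest at 30 h. CDH2, the neuronal cadherin, took steps of 0.00 in size and 0.09. With MMP9, 1 of the 5 measured members of the list was higher and 4 were lower at 45 h, and 3 were higher and 2 lower at 60 h, with medians of -0.60 (-0.40 with the slide effect taken out) and 0.09.

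Cell-cell adhesion was measured by a list of adherens junction, desmosome and keratin genes. DSG3, a desmosomal cadherin typical of stratified epithelium, was at -0.28, 0.34 and 1.43, a step of 0.62 and then a rise of 2.12-fold (1.09 ± 0.20). CDH1, the epithelial cadherin, was at 2.43, 2.63 and 2.99 on its brightest probe, with steps of 0.20 and 0.37. JUP, the junction protein plakoglobin, took 2 steps of 0.27. Of the 8 measured genes of adherens junctions, desmosomes and keratins 6 were higher and 2 lower at 45 h and 7 were higher and 1 lower at 60 h, with medians of 0.14 and 0.20, or 0.23 for the earlier one with the slide effect taken out.

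Tight junction genes took smaller steps. Among 7 of them the medians were 0.04, which turns to -0.01 under median scaling and comes to 0.11 with the slide effect taken out, and 0.11. CLDN2, a claudin that forms cation pores, took a step of -0.51 from 45 to 60 h. CD44, the hyaluronan receptor, was at -0.24, 0.10 and 0.52, with steps of 0.35 (0.54 with the slide effect taken out) and 0.42. The 6 measured integrins and adhesion receptors, to which it belongs, had 4 members higher and 2 lower at 45 h and 2 higher and 4 lower at 60 h. Their medians were 0.02, which turns to -0.03 under median scaling and was 0.10 with the slide effect taken out, and -0.06.

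Of the 4 measured polarity genes 2 were higher and 2 lower at 45 h, and 4 were higher at 60 h, against 47.7% of all features. The later steps of PODXL (0.02) and RAC1 (0.13) lay within the program error. PROM1, an apical membrane protein, took a later step of 0.74 and EZR, which links membrane to actin, one of 0.20.

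Inflammatory mediators moved in different directions and at different times. CCL2, the monocyte chemoattractant, was at 0.23, -1.01 and -1.24. It fell 2.37-fold up to 45 h (-1.24 ± 0.20, or -0.65 with the slide effect taken out), so that the 30 h array was the high one. CCL8, a related chemoattractant, fell 2.01-fold (-1.01 ± 0.29, or -0.54). CCL4 fell 2.80-fold (-1.49), a step that turned to 0.30 with the slide effect taken out. CCL17, an attractant of T cells, was at 5.04, 4.31 and 4.39, a step of -0.73 (-0.31). CCL20, another attractant of lymphocytes, was at -2.76, -3.42 and -3.73, an earlier step of -0.66 (-0.37).

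CXCL10, an interferon-induced chemokine, went down later. It was at -3.57, -3.77 and -5.15 and fell 2.61-fold from 45 to 60 h (-1.38 ± 0.31) to a signal of 16.4. CCL27, a chemokine of epithelial origin, took steps of 0.38 and 0.74. Among the 12 measured chemokines and receptors 4 were higher and 8 lower at 45 h, with a median of -0.26 (-0.10 with the slide effect taken out). At 60 h 6 were higher and 6 lower. The median of that step was -0.06, and it turned to as much as 0.21 under normexp, without the background filter and with detection on all 6 arrays.

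PTGS2, the inducible cyclooxygenase that makes prostaglandin precursors, had levels of 1.29, 1.46 and 2.50. Its step was 0.17 ± 0.20 up to 45 h, within the program error (0.52 with the slide effect taken out), and it rose 2.05-fold after it (1.04 ± 0.20). PTGES, the synthase downstream of it, went the other way, with levels of 2.81, 2.28 and 2.02 (an earlier step of -0.53, or -0.35 with the slide effect taken out). CSF2, the growth factor GM-CSF, was at 3.13, 2.77 and 3.61, a step of -0.36 (0.39 with the slide effect taken out) followed by 0.84. IFNK, the interferon of keratinocytes, was at -1.62, -1.35 and -0.09. It took an earlier step of 0.27 (0.86 with the slide effect taken out) and rose 2.39-fold from 45 to 60 h.

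IL13RA2, a decoy receptor for interleukin-13, took steps of -0.53 (0.12 with the slide effect taken out) and 0.93, each shared in direction by its 3 probes. Among 11 measured NF-kappaB target and inflammatory genes 9 were higher and 2 lower at 45 h and 6 were higher and 5 lower at 60 h, with medians of 0.17 and 0.06. IL18, a cytokine of epithelium, took a step of 0.33 up to 45 h (-0.71 with the slide effect taken out) and one of -0.63 after it. Interferon-stimulated genes had medians of -0.01 and -0.06 over 14 members. The earlier of these turned to as much as 0.03 with quantile scaling, without the background filter or with the slide effect taken out, and OAS3, an antiviral synthetase, took the largest upward step among them, 0.67 up to 45 h.

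Transporters of drugs, sugar and water moved in different directions. ABCB1, the multidrug exporter P-glycoprotein, was at -1.11, -0.30 and 1.20. It took a step of 0.82 ± 0.20 and then rose 2.83-fold (1.5 ± 0.20), on 1 of its 2 probes, the other one not being well above background at 30 h. SLC2A1, the glucose transporter GLUT1, was at 5.92, 6.56 and 6.96, steps of 0.64 and 0.40 shared by both probes. AQP1, the water channel of proximal tubule, was at -3.55, -3.75 and -5.20 and fell 2.72-fold from 45 to 60 h to a signal of 15.9. CA2, the carbonic anhydrase of acid-base handling, was at 6.68, 6.20 and 5.59, steps of -0.48 and -0.62 on a bright probe, lowest at 60 h. SLC1A1, a glutamate transporter, took steps of -0.24 and -0.59. SLC22A2, an organic cation transporter, took steps of 0.41 and 0.82.

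H19 and FGFR2 went down across both intervals. H19, an imprinted RNA that does not code for protein, was at 0.14, -0.77 and -1.71. Its steps of -0.91 ± 0.20 and -0.94 ± 0.21 are 1.87-fold and 1.92-fold, each just under 2-fold, and together they left the 60 h array clearly lowest. FGFR2, a receptor for fibroblast growth factors, was at 3.79, 3.36 and 2.53, steps of -0.43 and -0.83. KITLG, the ligand of the receptor KIT, was at -0.21, -0.60 and -1.04. BMP4, a secreted morphogen, was at 1.65, 0.95 and 1.15, a step of -0.70 that was -0.15 with the slide effect taken out. CDKN2B, an inhibitor of cyclin-dependent kinases, was at 1.89, 1.49 and 1.28. FABP1, a fatty acid carrier, was at -1.73, -2.22 and -2.95.

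**Figure D2:**
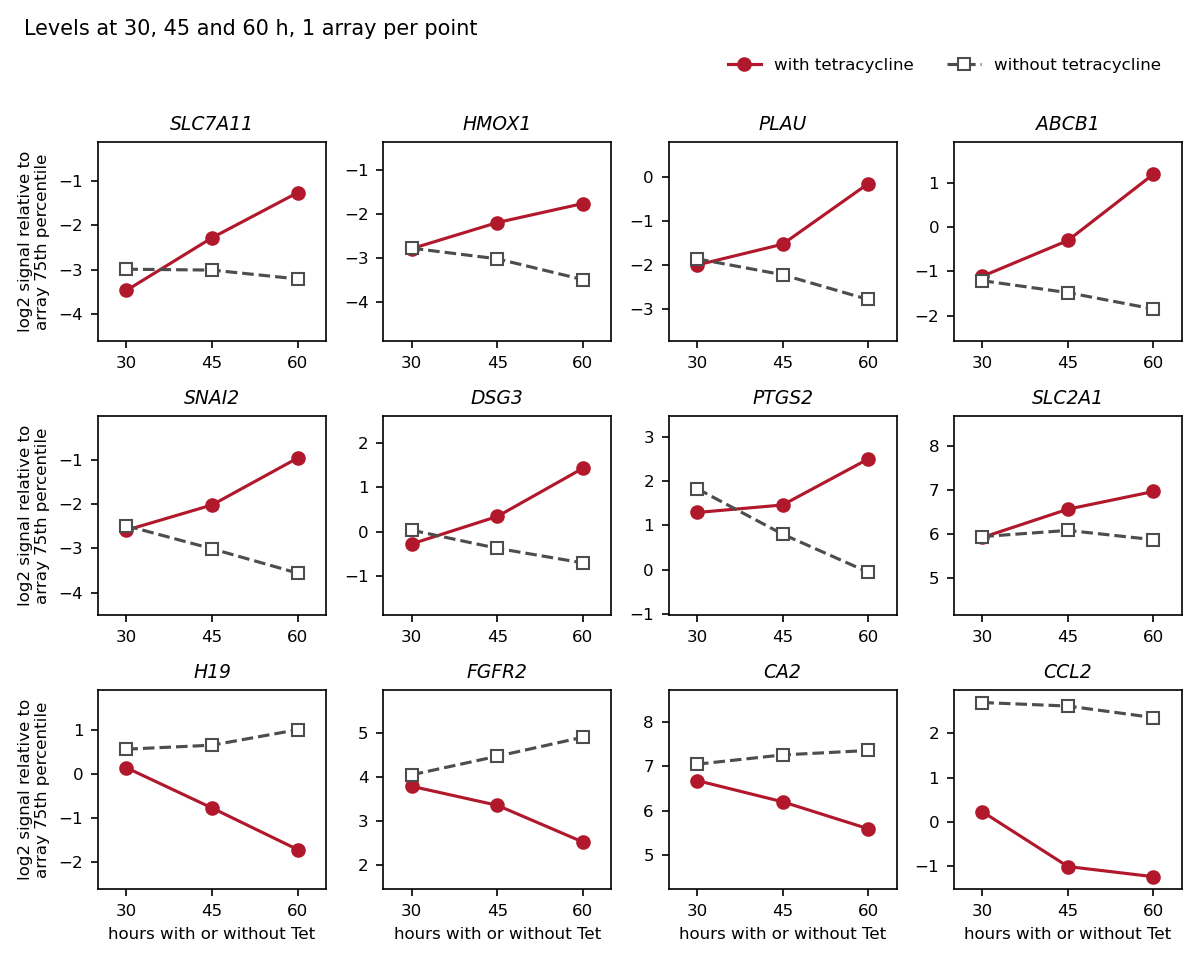
Relative log2 signal of 12 genes at 30, 45 and 60 h, 1 array per point, with tetracycline (red circles) and without (grey squares); each panel spans the same range of log2 units, and no error bars are drawn because no array was repeated. SLC7A11, HMOX1, PLAU, ABCB1, SNAI2, DSG3, PTGS2 and SLC2A1 end higher at 60 h than at 30 h with tetracycline, and H19, FGFR2, CA2 and CCL2 end lower.

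The genes with the largest steps that kept their direction from 30 to 60 h were, upward, APOH, SLC7A11, SNAP91, ABCB1, RHCE, DSG3, SNAI2 and FHIT. APOH, a lipid-binding plasma protein, was at -5.50, -4.44 and -3.21 and rose 2.09-fold and then 2.34-fold. SNAP91, a clathrin assembly protein best known from neurons, was at -2.89, -1.98 and -0.66, with the same direction on its 3 probes. FHIT, a nucleotide hydrolase, was at -2.07, -1.18 and -0.67, an earlier step of 0.89 (0.59 with the slide effect taken out). RHCE, a blood group protein of the ammonium transporter family, took steps of 0.67 and 0.69. In these 4 genes the order of the arrays was 30, 45, 60 h from low to high.

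Downward, the genes that kept their direction with the largest steps included H19, CABYR, CA2, FABP1, SRD5A1, SETMAR and OR6AA6. OR6AA6, an olfactory receptor, took steps of -0.46 (-1.71 with the slide effect taken out) and -0.90. CABYR, a calcium-binding protein known from sperm, was at -1.78, -2.66 and -3.42. SRD5A1, a steroid reductase, took steps of -0.51 and -0.55, with the same direction on its 3 probes.

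Other genes turned at 45 h. PCK1, the key enzyme of glucose synthesis in kidney and liver, was at -1.6, -0.70 and -1.31, with a step of 0.90 (0.16 with the slide effect taken out) and one of -0.61. KCNIP2, a potassium channel subunit, rose 3.65-fold up to 45 h (a step of 1.87, or 0.75 with the slide effect taken out) and took a step of -0.42 after it. PRL, the hormone prolactin, rose 2.04-fold up to 45 h, a step of 1.03 that turned to -0.03 with the slide effect taken out. LGALS4, a galectin, and RHBG, an ammonium transporter, fell 2.10-fold and 2.04-fold up to 45 h on signals of 47.0 and 25.5 at 30 h. Those steps of -1.07 and -1.03 were -0.12 and -0.37 with the slide effect taken out.

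The other named genes past 2-fold were mostly dim. OR10K2, an olfactory receptor, rose 2.02-fold up to 45 h (1.01 ± 0.30, or 0.39 with the slide effect taken out), and FAM83H, a keratin-associated protein, fell 2.34-fold (-1.23 ± 0.22, or -0.79). TLR1, a receptor for bacterial lipopeptides, was at -4.96, -4.90 and -3.29 and rose 3.06-fold from 45 to 60 h. CDKL4, a kinase related to cyclin-dependent kinases, rose 2.55-fold and CLCN1, the chloride channel of muscle, rose 2.31-fold in the same interval, from signals of 15.7 and 24.1 at 30 h. In these 3 genes the 60 h array was the high one.

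A few falls up to 45 h rested on a single high array. PDE1A, a calcium-dependent phosphodiesterase, had a signal of 167 at 30 h and of 13 and 17 later, a step of -3.64 (-1.59 with the slide effect taken out), and its other probe took a step of 0.73, so the 2 probes disagree. CKMT2, the creatine kinase of muscle mitochondria, had signals of 105, 15.8 and 18.7, a step of -2.69 (-0.76 with the slide effect taken out) on its 1 probe above background. At 30 h without tetracycline CKMT2 gave a signal of 17.3 and PDE1A one of 9.97, so both were high on the 30 h array with tetracycline alone. PDE1A is outside the rule for named genes and was chosen after its values were seen.

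Some genes were well above background at one end of the time course and not at the other. For 26 of the 1437 genes with a symbol the signal was above background at 30 h and not at 60 h. For 8 of the 26 the lower bound of the difference passed 2-fold. The share over all features was not counted. CASQ2, a calcium store protein of muscle, was at least 9.77-fold higher at 30 h, seen on 1 of its 3 probes. GATA4, a transcription factor of heart and gut, was at least 6.64-fold higher at 30 h than at 60 h and was also above background at 45 h. STON1, an endocytic adaptor, was at least 5.03-fold higher, MCPH1, a chromosome condensation protein, at least 4.63-fold, and SELP, an adhesion receptor of platelets and endothelium, at least 4.06-fold. CASQ2, GATA4, STON1 and SELP were not well above background on any array without tetracycline, whereas MCPH1 was on all 3.

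In the other direction 21 of the 1437 genes were above background at 60 h and not at 30 h, 7 of them with a bound past 2-fold. KLK10, a kallikrein protease of epithelia, was at least 5.21-fold higher at 60 h, SLC2A9, a urate transporter, at least 4.36-fold, GAD2, a decarboxylase that makes GABA, at least 2.69-fold, ODAM, a tooth enamel protein, at least 2.47-fold, and GPR83, an orphan receptor, at least 2.36-fold. KLK10 and GPR83 were not well above background on any array without tetracycline. These bounds set the level on the bright array against the higher of the dim signal and the lowest signal above background on that array.

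The lists for ribosome assembly and cell division held few measured genes. All 3 measured genes of ribosome assembly were lower at each later time. They were NPM1, a nucleolar chaperone (-0.20 and -0.16), TCOF1, a factor for ribosomal RNA transcription (-0.22 and -0.67), and NIP7, a factor for ribosome maturation (-0.15 and -0.35). Over all features 49.2% were lower at 45 than at 30 h and 52.3% lower at 60 than at 45 h. Of 5 measured genes of the later cell cycle 3 were lower at 45 h and 4 at 60 h, with medians of -0.29 and -0.28. UBE2S, a ubiquitin-conjugating enzyme of mitotic exit, was at 4.88, 4.44 and 4.16, an earlier step of -0.44 (-0.27 with the slide effect taken out), and CENPS, a kinetochore protein, was at -0.10, -0.41 and -0.85. CDC25A, a phosphatase that activates cyclin-dependent kinases, took steps of 0.03 ± 0.22 and -0.73. CCNB2, a mitotic cyclin, took steps of -0.29 and 0.23, and BIRC5, an inhibitor of cell death needed for division, of 0.02 and -0.15. Of the 2 measured genes of the early cell cycle, CCND1, a cyclin, took steps of 0.19 and 0.01 and TYMS, which makes thymidylate, of -0.30 and -0.20.

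Mitochondrial import and quality control had 3 measured genes, of which 2 were lower at 45 h and 3 at 60 h, with medians of -0.24 and -0.52. The earlier median was -0.09 with the slide effect taken out, and the later one ranged to -0.15 over the alternatives. TIMM8A, a carrier of inner membrane proteins, was at 0.14, -0.12 and -0.70, and PHB, prohibitin, was at 4.81, 4.57 and 4.06 on the brightest of 3 probes. APEX1, an endonuclease of base excision repair, was at 1.90, 1.53 and 1.01. EIF1, an initiation factor, was at 5.40, 5.22 and 4.80. Each of these 4 genes was highest at 30 h and lowest at 60 h.

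The ribosomal proteins themselves took very small steps. Of 24 measured genes of cytosolic ribosomal proteins 22 were lower at 45 h, with a median of -0.07 (0.01 with the slide effect taken out). At 60 h 19 were higher, with a median of 0.05 that came to 0.00 in size under quantile scaling. The single steps ran from -0.20 for RPS3 to 0.05 for RPL7 in the earlier interval, all within the program error.

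Genes of hypoxia and glycolysis were the list with the highest later median. Of 10 measured members 7 were higher and 3 lower in each interval, with medians of 0.24 and 0.37 against 0.004 and -0.012 over all features, and 0 members passed 2-fold. ADM, the vasodilator peptide adrenomedullin, was at 1.64, 2.08 and 2.83, an earlier step of 0.45 (0.29 with the slide effect taken out). ALDOC, a glycolytic aldolase, was at 1.63, 1.99 and 2.65 with the same direction on its 3 probes. NDRG1, a stress-induced protein, was at -0.30, 0.34 and 0.77, and HIF1A, the oxygen-sensitive transcription factor, was at 3.04, 3.30 and 3.65. GAPDH and TPI1, 2 enzymes of glycolysis, took steps of -0.16 and 0.11 and of -0.08 and -0.06, within the program error.

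Of 8 measured genes of fatty acid oxidation and lipid transport 5 were higher at 45 h and 6 at 60 h, with medians of 0.30 and 0.22. VNN1, a pantetheinase, was at -1.61, -1.16 and -0.58, an earlier step of 0.45 (0.26 with the slide effect taken out). VLDLR, a lipoprotein receptor, took steps of 0.41 and 0.31, and CPT1A, which admits fatty acids to mitochondria, took steps of 0.29 and 0.27. Within complement and coagulation 10 of 10 measured genes were higher at 45 h, with a median of 0.25 (0.11 with the slide effect taken out), and 7 of 10 were lower at 60 h, with a median of -0.11. PLAU belongs to this list too. F2RL1, a protease-activated receptor, took steps of 0.32 and -0.39.

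**Figure D3:**
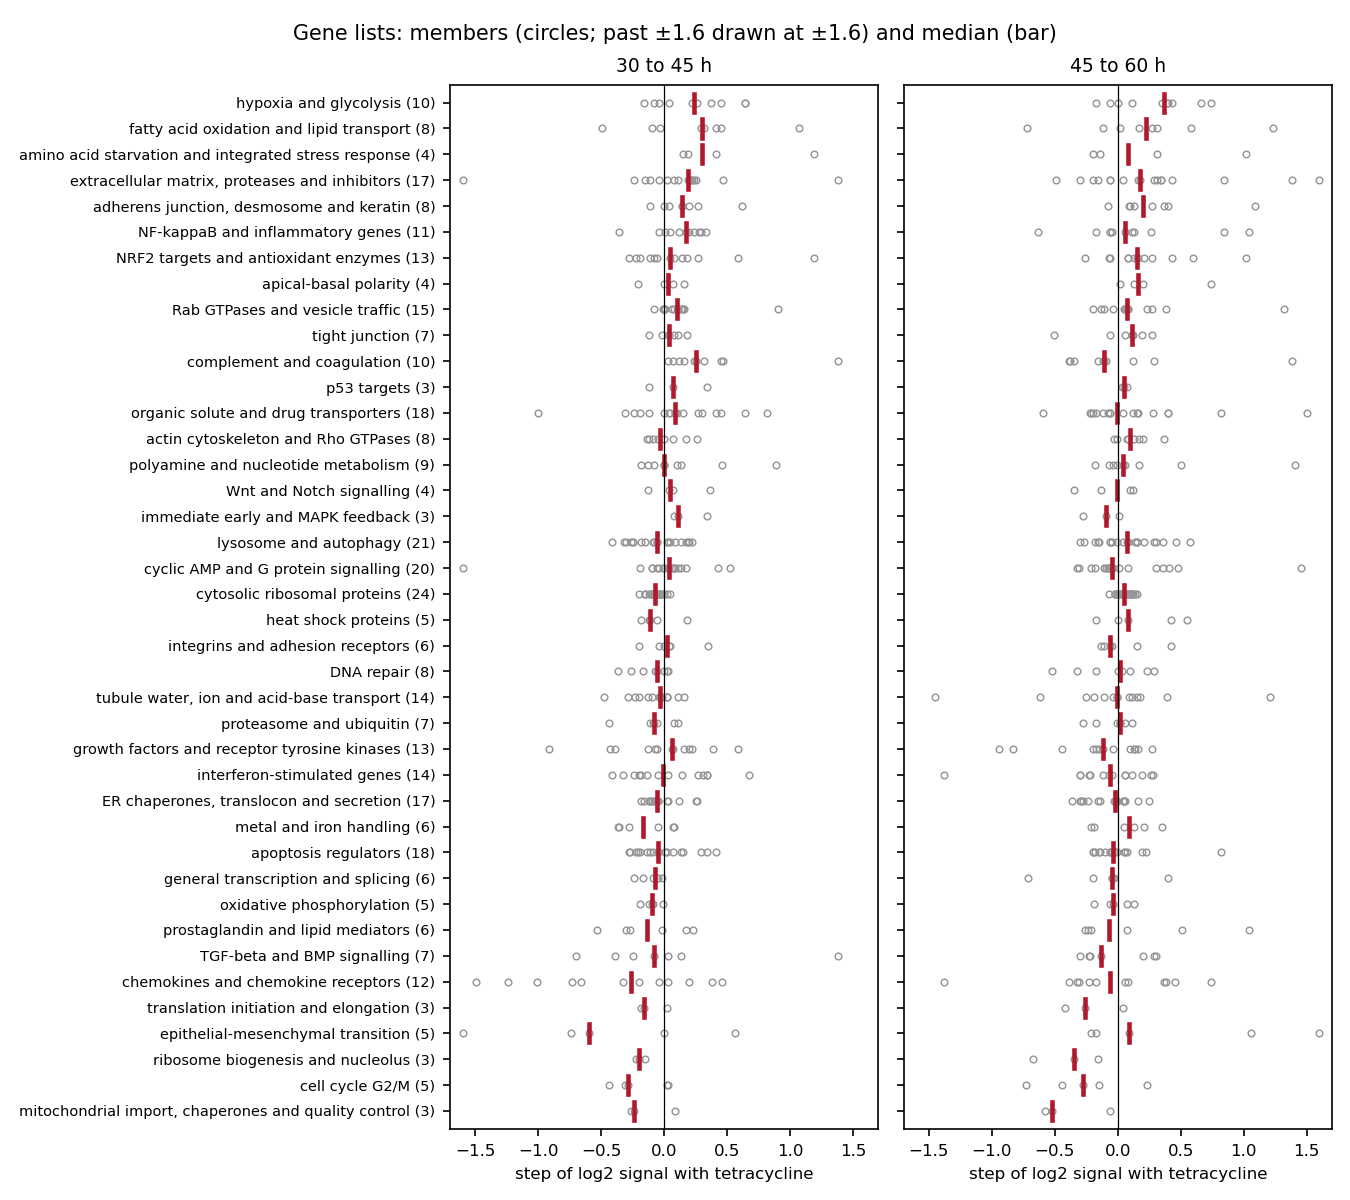
Steps of log2 signal with tetracycline from 30 to 45 h (left) and from 45 to 60 h (right) for the gene lists with 3 or more measured members, whose number stands in brackets; circles are genes, red bars are list medians, and steps beyond 1.6 in size are drawn at the edge. Hypoxia and glycolysis has medians of 0.24 and 0.37, and mitochondrial import, chaperones and quality control has medians of -0.24 and -0.52.

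Further groups stayed near the median of all features or moved within single genes. ER chaperones, translocon and secretion genes had 5 members higher and 12 lower in each interval, with medians of -0.06, or -0.02 with the slide effect taken out, and -0.02 over 17. SPCS2, a signal peptidase subunit, and CANX, a lectin chaperone, took later steps of -0.36 and -0.30. Heat shock proteins had medians of -0.11 (0.03 with the slide effect taken out) and 0.08 over 5 members, with HSPB1, a small heat shock protein, at a later step of 0.55. Among 15 genes for Rab GTPases and vesicle traffic 11 were higher in each interval, with medians of 0.10 and 0.07, and SNAP91 was the one that passed 2-fold. Apoptosis regulators had medians of -0.05 (-0.03 with the slide effect taken out) and -0.04 over 18 members, with CASP12, a caspase of the ER, at steps of 0.41 (0.87 with the slide effect taken out) and 0.82. Among 21 genes of lysosome and autophagy NPC1, a cholesterol carrier, took the largest later step, 0.57, and CTSD, a protease, took the largest earlier one, -0.41 (-0.24 with the slide effect taken out).

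In the arm without tetracycline the culture aged over the same times with its own changes. There 148 features (0.543%) were higher and 84 (0.308%) lower from 30 to 45 h, and 242 (0.889%) were higher and 151 (0.554%) lower from 45 to 60 h. Steps in the 2 arms come from different arrays but not from independent slides, and across features they correlated at r = 0.24 (rho = 0.33) in the earlier and r = 0.39 (rho = 0.40) in the later interval, over 27232 and 27233 features that are not independent replicates. In this arm the slides change after 45 h. The step from 30 to 45 h with tetracycline and that from 45 to 60 h without it both cross the slides. These unlike intervals correlated at r = 0.23 (rho = 0.31), near the values for the shared earlier interval. Of the 181 features that rose with tetracycline from 45 to 60 h, 138 (76.2%) were also higher without it, against 52.2% of all features there, and 43 passed 2-fold there, which is 23.8% of the rises with tetracycline and 17.8% of those without. The shares of the 3 other sets that moved the same way without tetracycline were 63.1% of the earlier rises, 47.7% of the earlier falls and 54.3% of the later falls, against 50.9%, 49.1% and 47.8% of all features there. Without the dimmest class the 4 shares, in the order of earlier rises, earlier falls, later rises and later falls, were 63.9%, 64.3%, 68.2% and 85.0%, of 36, 14, 66 and 20 features. The matching shares over all features outside that class were not counted, so how far these 4 lie from them is not known.

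Several genes moved in the same direction in both arms. OAZ3, an ornithine decarboxylase antizyme, was at -4.18, -3.72 and -2.30 with tetracycline, a later step of 1.41 against 1.53 without. PDE6B, a phosphodiesterase of rod cells, took a later step of 1.45 against 2.29. APOH took steps of 1.07 and 1.23 against 0.50 and 1.13. The hypoxia genes ADM and ALDOC took later steps of 0.74 and 0.66 against 0.97 and 1.01, while NDRG1 of the same list took one of 0.43 against 0.12. The medians of the hypoxia and glycolysis list were 0.24 and 0.37 with and 0.16 and 0.12 without tetracycline, so the list as a whole did not follow ADM and ALDOC. On the falling side TCOF1 took a later step of -0.67 against -0.77, TIMM8A one of -0.58 against -0.86, APEX1 one of -0.52 against -0.87 and CENPS one of -0.44 against -0.50. The list medians of ribosome biogenesis were -0.20 and -0.35 with and -0.27 and -0.62 without, and those of later cell cycle genes -0.29 and -0.28 with and -0.29 and -0.48 without.

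Other genes moved apart. SLC7A11 took steps of 1.19 and 1.02 with and of -0.02 and -0.20 without tetracycline. PTGS2 took steps of 0.17 and 1.04 against -1.03 and -0.85, and ABCB1 of 0.82 and 1.5 against -0.26 and -0.37. PLAU, SNAI2 and DSG3 likewise went down without the drug, with later steps of -0.57, -0.55 and -0.33. In reverse, H19 took steps of 0.10 and 0.35 without it, FGFR2 of 0.42 and 0.43 and CA2 of 0.21 and 0.10. FXYD2, the gamma subunit of the sodium pump, took steps of -0.13 and 0.18 with the drug and of 0.62 and 1.18 without. TNNI3, a troponin, and VLDLR went up in both arms, with later steps of 0.81 and 0.31 with and 1.63 and 0.97 without.

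**Figure D4:**
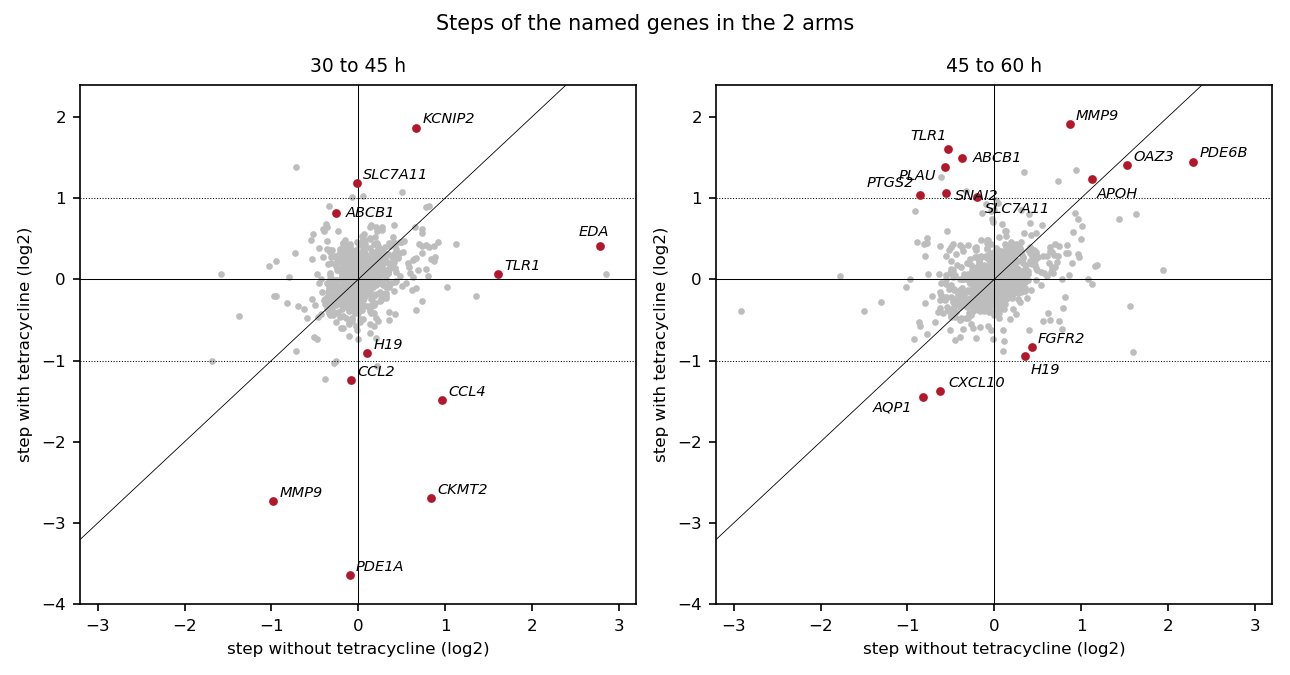
Steps of the named genes with tetracycline (vertical axis) against the same step without (horizontal axis), in log2 units, for 30 to 45 h (left) and 45 to 60 h (right); dotted lines mark 2-fold with tetracycline and the diagonal marks equal steps. PTGS2, ABCB1, PLAU and SNAI2 lie above the upper dotted line in the later interval with negative steps without the drug, whereas OAZ3 lies near the diagonal at 1.41 and 1.53.

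Whether the change with time differed between the arms was tested by the slope of the difference, with minus without tetracycline, per 15 h, on all 6 arrays. This slope is set by the 30 and 60 h arrays, at which times the 2 arms shared a slide. The 1 residual degree of freedom came from the 45 h arrays, which lay on different slides, so its errors hold any slide effect. With limma 0 of 27231 features (0.0%) passed an adjusted p of 0.05, the smallest being 0.0766, while 5293 (19.4%) had an unadjusted p under 0.05, 2333 of them with a higher and 2960 with a lower slope. Among the 987 named features 105 had a higher and 114 a lower slope at that unadjusted level, which is 22.2%. Past the limma adjusted p of 0.05, median scaling gave 391 features, normexp 1718, a trended and robust prior 1855 and quantile scaling 0.

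The named genes placed first by this test's p-values, not by size of slope, included, upward, PTGS2, SNAI2, S1PR1, DSG3, SLC7A11 and SNAP91. PTGS2 had a slope of 1.55 ± 0.12 (SE), SNAI2 one of 1.35 ± 0.10, DSG3 one of 1.22 ± 0.09 and SLC7A11 one of 1.21 ± 0.07, each with a limma adjusted p of 0.0896. S1PR1, a receptor for sphingosine phosphate, had one of 1.23 on a dim probe that lay at -4.96, -4.74 and -4.23 with tetracycline. At 60 h without it S1PR1 was not well above background (a signal of 8.76), and its slope ranged from 0.36 to 1.30 over the alternatives. SNAP91 had a slope of 1.12. ABCB1 at 1.48 ± 0.13 (limma adjusted p = 0.0896) and PLAU at 1.38 ± 0.18 (0.0974) also diverged upward. Over the 8 alternatives the adjusted p of SLC7A11 ranged from 0.00194 to 0.393, and it passed 0.05 in 3 of them.

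Downward, the genes placed first by p-value were H19 (-1.15 ± 0.08), FGFR2 (-1.05 ± 0.09), FXYD2 (-0.88 ± 0.08), CYP4A11 (-0.89), TNNI3 (-0.76) and CA2 (-0.70 ± 0.07), with limma adjusted p between 0.0896 and 0.0921. CYP4A11, a fatty acid hydroxylase of kidney and liver, was at 2.54, 2.77 and 2.26 with tetracycline. CCL2, lower in this arm at every time, had a slope of -0.57 ± 0.19 with a limma adjusted p of 0.233. Because the slope follows from the steps of the 2 arms, it has to be near 0 for genes with similar steps, as for APEX1 (0.09), CENPS (0.02) and PHB (0.01). Other genes named above as moving in the same direction in both arms had slopes further from 0. Among them were PDE6B (-0.54), VLDLR (-0.55), APOH (0.33) and OAZ3 (-0.29), besides TNNI3.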

How the data were processed

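The authors deposited scanner files of spot intensity from Agilent Feature Extraction 11.5.1.1, named in the submitters' processing notes, with protocol GE1_1105_Oct12 and build CanFam3.1 per the file headers. Processed signals of non-control spots, without outlier spots, were averaged for 43603 probes, put on the log2 scale and set to each array's 75th percentile. The deposited series matrix was each array's processed signal intensity times 1 factor. Probes were named through RefSeq accessions (assembly UU_Cfam_GSD_1.0, names only), which gave 2326 probes a symbol, 27 a bare locus number, 41250 none and 0 several. A gene was represented by its brightest probe well above background on all 3 arrays.

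The slope test used limma 3.58.1 in R 4.3.3 (lmFit, eBayes, two-sided, Benjamini-Hochberg), with arm, time as a block and arm by linear time. It was tested on simulated data. Its p-values measure only the spread over 6 arrays without replicate cultures, and the number of arrays limits precision. Named genes were those with the largest steps (10 per direction and interval, all probes of a gene agreeing), shapes over both intervals (8 each), up to 4 per list, 6 per direction of slope, up to 5 per direction seen at one end only, and SCRIB. Genes were named outside this rule where a list or comparison is described. The members, lists and rule were chosen with earlier results of these data known. Alternatives were other scalings, normexp (offset 50) on median spot signal, the series matrix values, other filters, probe means, thresholds and priors, and a slide term. Some genes that the rule names are left out of the text.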

Additional observations from a re-analysis of the deposited data

How the results depend on the processing

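No paired analysis was possible because each condition has 1 array, so that no replicate numbers pair arrays; the slope test compares the arms within each time. The number past 2-fold depended on how dim probes were treated. For higher and lower features from 30 to 45 h it was 16 and 9 with normexp, 1172 and 1029 without the background filter, and 366 and 357 with dim arrays set at their bound. With the slide effect taken out, the lower features numbered 70. Without the dimmest of 4 equal classes by signal, an alternative chosen after seeing the data, the counts were 36 and 14. They were 613 and 427 at 1.5-fold and 27 and 32 at 3-fold. From 45 to 60 h the counts were 39 and 11 with normexp, 1208 and 961 without the filter, 445 and 279 with bounds, 66 and 20 without the dimmest class, 864 and 485 at 1.5-fold, and 35 and 18 at 3-fold. The limma slope test passed 0 features, but 391 with median scaling, 1718 with normexp, 2 with detection on all 6 arrays and 1855 with a trended and robust prior; 5293 had an unadjusted p under 0.05 and 509 an adjusted p under 0.1. It stayed at 0 with quantile scaling, the series matrix values, no filter and probe means. Leaving out an array was not possible for a step, which needs both. Of 364 steps of named genes, 364 moved by less than their error under median and under quantile scaling, 305 did under normexp (which shrinks dim steps by its offset) and 361 with probe means. Small steps changed sign in 5, 6, 7 and 0 cases, and 0 steps past 2-fold did. With the slide effect taken out, chosen after seeing the data for genes and lists, 62 of 182 earlier steps moved further and 39 changed sign, 2 of them steps past 2-fold, PRL to -0.03 and CCL4 to 0.30. Apart from the loss of dim steps under normexp and the filters, the cause was not tested. Signals near background limit the steps of dim probes, whose error reached a median of 0.25 in the dimmest class.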

Other observations

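The feature with the largest upward step up to 45 h had no gene name in the table used. This probe, annotated to the Ensembl transcript ENSCAFT00000006274, was at -2.96, 0.28 and 1.93 with tetracycline and at -3.72, -2.02 and -1.22 without it, a step of 3.24 ± 0.21 against 1.7. It was above the array without tetracycline at each of the 3 times, and its level went up over both intervals in both arms.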
